A study of Mus musculus with 3 samples.

Results

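The genes described here are Slc2a1, which codes for the glucose transporter GLUT1, and 9 genes of enzymes that take glucose to lactate. They are the hexokinase genes Hk2 and Hk3, the glucose-6-phosphate isomerase gene Gpi1, the phosphofructokinase gene Pfkl, the aldolase gene Aldoa, Gapdh, the enolase gene Eno1, the pyruvate kinase gene Pkm and the lactate dehydrogenase gene Ldha. They were found by symbol in the gene column of the deposited matrices, where all 10 were present among 33696 gene identifiers. All 10 had at least 100 transcript molecules counted by unique molecular identifiers (UMIs) in alveolar-macrophage-like cells, as did 12786 genes in all.

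The cells were washed from the airspaces of wild-type C57BL/6J mice 12 weeks old. The mice were exposed for 3 hours, to filtered air in the control group and to ozone at 1 ppm or 1.5 ppm in the others, and the lavage was done 22 to 24 hours later under tribromoethanol anaesthesia in every group. Ozone is an oxidant gas that injures the airway lining. Cells of 3 to 4 mice were pooled into 1 droplet single-cell library per exposure, so single mice could not be told apart, no test between exposures was possible, and an effect of exposure cannot be told apart from a difference between pools or library preparations. All intervals below are 95% intervals that cover counting error only.

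Glycolysis splits glucose into pyruvate in the cytosol and yields ATP without oxygen. The sugar enters through transporters such as GLUT1, is trapped as glucose 6-phosphate by hexokinases, passes its main control point at phosphofructokinase, and leaves either as pyruvate for the mitochondria or as lactate made by lactate dehydrogenase. Hypoxia-inducible factor 1 (HIF-1) and Myc are known activators of many of these genes. Resident alveolar macrophages live in a space low in glucose and are known to rely on fatty acid oxidation more than on glycolysis, while neutrophils depend on glycolysis.

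After removal of barcodes under 500 UMIs, under 300 genes or over 10% mitochondrial UMIs, 3479 cells of filtered air, 2241 cells of 1 ppm and 6577 cells of 1.5 ppm ozone remained, with median depths of 13663, 15743 and 11986 UMIs. Alveolar-macrophage-like cells made up 88.4% of clustered cells in filtered air, 89.4% at 1 ppm and 80.2% at 1.5 ppm, in 3072, 1991 and 5276 cells with 46471806, 35306668 and 85042406 UMIs. This is not every cell with macrophage markers. Left out as unnamed were cluster 5, led by Cd74 and H2-Aa, and cluster 11, of low UMIs, with 16 and 12 of 18 macrophage markers counted. Cluster 5 held 6.79%, 5.44% and 5.90% of clustered cells in order of dose, and cluster 11 held 1.41%, 1.48% and 4.07%. Clusters were named from these marker lists, so marker levels describe the alveolar-macrophage-like class and are no test of it. In it the 18 macrophage markers summed to 19676, 21612 and 15235 UMIs per 1000000 UMIs (CPM) in the 3 libraries in order of dose. The 12 neutrophil markers summed to 91.0, 84.7 and 74.8 CPM, with S100a9 at 1.61 CPM at 1.5 ppm. Genes listed as markers of other cells were also present at a low level. The 15 airway epithelial markers summed to 245.2, 179.8 and 226.8 CPM and 10 migratory dendritic cell markers to 150.6, 141.3 and 133.9 CPM. The 12 T cell markers summed to 146.9, 139.9 and 122.0 CPM and 12 alveolar epithelial markers to 42.7, 47.8 and 45.6 CPM. Cd2 of the T cell list and Tppp3 of the airway list were counted in most clusters of the class, so these sums do not measure RNA of other cells. Single markers of other cells ranged widely. At 1.5 ppm Ccr7 was at 0.153 CPM and the T cell gene Cd3e at 0.035 CPM. The neutrophil marker S100a8 was at 16.1 CPM, in 16.5% of these cells, against 9.92 CPM in air. The airway epithelial gene Scgb1a1 was at 31.8 CPM at 1.5 ppm. The 1.5 ppm library stood apart in its mitochondrial share, with a median of 2.31% in these cells against 4.13% in filtered air and 3.95% at 1 ppm. Its macrophages also fell into other clusters: cluster 0 (led by Dnah11, Patj and Lepr) held 1178 cells of filtered air, 437 of 1 ppm and 164 of 1.5 ppm, cluster 1 (led by Il1b and sterol synthesis genes) held 153, 289 and 1118, and cluster 4 held 12, 16 and 895. Libraries shared at most 7 cell barcodes.

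Upstream sequences are shown for the 3 genes that were at least 25% higher at 1.5 ppm than in air (Slc2a1, Hk2 and Eno1) and for the gene that was lowest (Gpi1). Each is the 250 bases before the gene's start, 5′ to 3′ on the gene's strand, from RefSeq on build GRCm38.p6, which is not the build of the counts. Capitals mark ACGTG, the core of the HIF-1 site, on either strand (CACGT on the other).
Slc2a1 (GRCm38.p6, chr4:119108495-119108744, plus strand): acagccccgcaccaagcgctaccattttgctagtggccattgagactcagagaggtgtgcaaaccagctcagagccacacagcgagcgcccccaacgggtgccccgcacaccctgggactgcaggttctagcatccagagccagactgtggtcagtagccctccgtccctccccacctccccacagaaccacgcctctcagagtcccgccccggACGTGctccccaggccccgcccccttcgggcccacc
Hk2 (GRCm38.p6, chr6:82774455-82774704, minus strand): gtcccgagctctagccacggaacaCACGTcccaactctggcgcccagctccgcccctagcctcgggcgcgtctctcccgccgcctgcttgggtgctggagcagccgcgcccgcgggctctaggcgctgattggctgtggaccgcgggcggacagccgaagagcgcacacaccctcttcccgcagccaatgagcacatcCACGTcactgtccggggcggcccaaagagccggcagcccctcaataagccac
Eno1 (GRCm38.p6, chr4:150236458-150236707, plus strand): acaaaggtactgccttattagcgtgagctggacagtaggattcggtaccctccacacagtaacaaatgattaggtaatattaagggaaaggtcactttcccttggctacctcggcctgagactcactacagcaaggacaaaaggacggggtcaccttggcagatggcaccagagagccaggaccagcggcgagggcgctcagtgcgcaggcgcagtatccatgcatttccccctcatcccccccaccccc
Gpi1 (GRCm38.p6, chr7:34230337-34230586, minus strand): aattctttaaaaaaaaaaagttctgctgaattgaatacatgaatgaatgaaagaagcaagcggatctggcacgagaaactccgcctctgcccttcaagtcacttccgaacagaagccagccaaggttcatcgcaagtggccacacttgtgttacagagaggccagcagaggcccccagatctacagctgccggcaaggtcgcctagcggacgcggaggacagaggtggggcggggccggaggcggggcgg

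ACGTG stood 36 bases before the start of Slc2a1 and 226 and 52 bases before that of Hk2, and was not in the windows of Eno1 (for 1 of the 3 starts listed) and Gpi1. Over the 10 genes it was in 4 windows (Slc2a1, Hk2, Hk3 and Ldha), against 16.5% of 27018 genes with a window of the same length. The E-box CACGTG, which Myc and Max bind and which holds ACGTG on each strand, was in 1 of the 10 (Ldha, at 2 places), against 6.04% of all genes. The other HIF-1 core, GCGTG, was in 4 of the 10 (Slc2a1, Pfkl, Gapdh and Eno1), against 28.3%, the GC box GGGCGG in 5 of the 10 (Slc2a1, Hk2, Gpi1, Pkm and Ldha), against 32.96%, and the CCAAT box CCAAT in 2 of the 10 (Hk2 and Pkm), against 34.5%. These are letter matches on both strands, with no binding measured.

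In alveolar-macrophage-like cells both doses were set against air and against each other. At 1 ppm all 10 genes were above their level in air: the median log2 ratio was 0.19, against -0.05 over all 12786 genes, of which 41.4% were above 0. Pfkl was below air in 2 of 20 alternative settings, at -0.38 in cells of 8000 to 16000 UMIs, past the size rule below in the other direction, and at -0.04 with the same cluster weights in every library. Hk3 was below air in 1, at -0.05 with the same cluster weights. At 1.5 ppm 6 of 10 genes were above air, with a median of 0.14, against -0.05 over all genes, of which 44.9% were above 0. Here Slc2a1, Hk2 and Eno1 were at least 25% higher than in air, and the other 7 were not past the size rule below, with Gpi1 the lowest. Against 1 ppm, 4 of 10 genes were higher at 1.5 ppm, with a median of -0.16, against 0.01 over all genes, of which 51.7% were above 0.

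With 1 library per exposure, genes were called by size alone: higher at 25% or more above the other group, and lower at 80% of it or less. At 1 ppm against air, 2 of 10 were called higher (Slc2a1 and Gapdh, the second in 14 of 20 alternative settings) and 0 lower, where 8.34% of all 12786 genes were called higher and 11.6% lower. Among the 9716 genes of at least 5 CPM on average, as all 10 are, those shares were 5.29% and 7.76%. At 1.5 ppm against air, 3 of 10 were called higher (Slc2a1, Hk2 and Eno1) and 0 lower, where 21.6% of all genes were called higher and 18.1% lower, and 17.1% and 18.2% of genes of at least 5 CPM. The share of 3 in 10 is near that background. At 1.5 ppm against 1 ppm, 2 of 10 were called higher (Slc2a1 and Eno1) and 1 lower (Gpi1), where 20.6% and 12.2% of all genes were, and 14.6% and 10.6% of genes of at least 5 CPM.

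At the larger size of 1.5-fold, 0 of 10 were called at 1 ppm against air, where 2.01% of all genes were higher and 3.08% lower (0.618% and 1.01% of genes of at least 5 CPM). At 1.5 ppm against air 2 of 10 were higher (Slc2a1 and Eno1) and 0 lower, where 11.5% of all genes were higher and 4.36% lower (7.94% and 3.39% of genes of at least 5 CPM). At 1.5 ppm against 1 ppm 0 of 10 were called, where 10.4% of all genes were higher and 3.15% lower (5.90% and 1.97% of genes of at least 5 CPM). Each pair of the 3 comparisons shares 1 library, so the comparisons are not independent of each other.

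**Figure D1:**
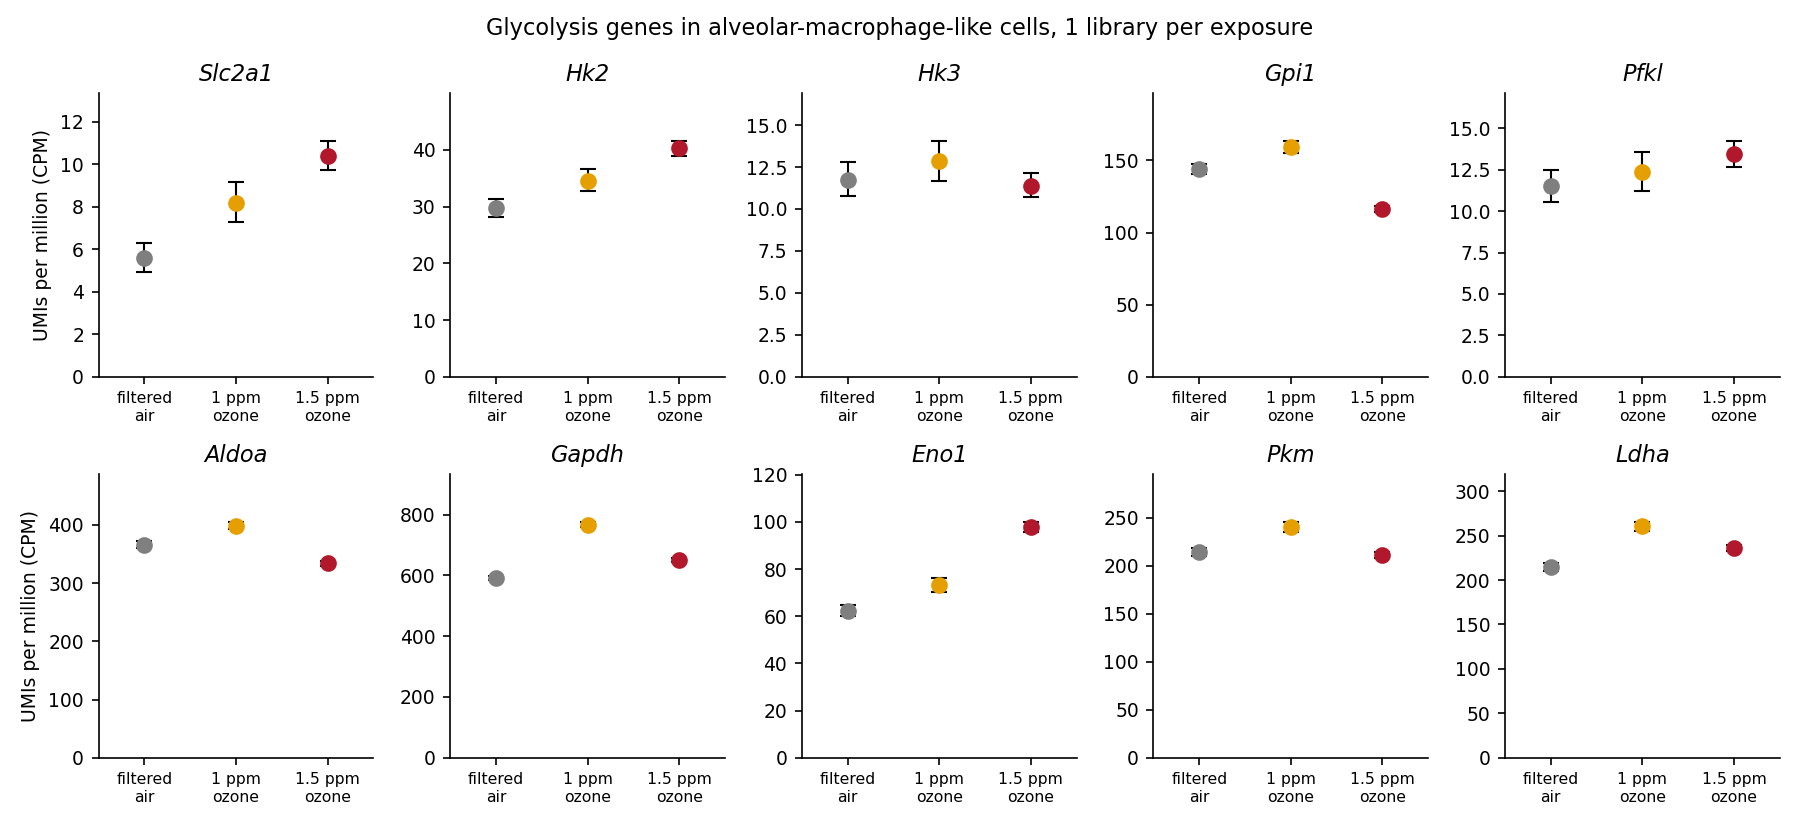
Level of each gene in alveolar-macrophage-like cells in CPM, with filtered air, 1 ppm and 1.5 ppm ozone along the horizontal axis; points are 1 library each and bars are 95% Poisson intervals of counting error. Slc2a1 stands at 5.59, 8.19 and 10.4 CPM and Eno1 at 62.4, 73.2 and 97.9 CPM in order of dose, while Gpi1, Aldoa, Gapdh, Pkm and Ldha are highest at 1 ppm.

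Against air, Slc2a1 had the largest ratio of the 10 genes at both doses. Slc2a1 had 5.59 CPM in filtered air, 8.19 CPM at 1 ppm and 10.4 CPM at 1.5 ppm, from 260, 289 and 885 UMIs. Each level lay above that of the next lower dose, and the 3 counting intervals did not overlap. The ratio to air was 1.46 at 1 ppm (interval 1.23 to 1.74) and 1.86 at 1.5 ppm (1.62 to 2.14), and the ratio of 1.5 ppm to 1 ppm was 1.27 (1.11 to 1.46). A UMI of Slc2a1 was seen in 7.39% of air cells, 11.8% of 1 ppm cells and 13.7% of 1.5 ppm cells. After cells of at least 2000 UMIs were thinned to that depth, with shallower cells left out, the shares were 1.08%, 1.66% and 1.79%. Transport of hexoses is shared with other members of the SLC2 family, and among Slc2a1, Slc2a3, Slc2a6, Slc2a8 and Slc2a9 the share of UMIs from Slc2a1 was 16.5% in air, 21.1% at 1 ppm and 33.7% at 1.5 ppm. Slc2a9, which codes for a urate and hexose transporter, gave the largest share in each library, at 53.2%, 52.5% and 41.6%. Its level was 18.0 CPM in air, 20.4 CPM at 1 ppm and 12.9 CPM at 1.5 ppm, so that at the higher dose Slc2a9 was below air and Slc2a1 above it.

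Hexokinases phosphorylate glucose and hold it in the cell. Hk2, a form known to be inducible, had 29.8 CPM in air, 34.6 CPM at 1 ppm and 40.2 CPM at 1.5 ppm. The order was that of dose, with no overlap of the intervals, and the ratio to air was 1.16 (1.08 to 1.26) at 1 ppm and 1.35 (1.27 to 1.44) at 1.5 ppm. Hk3, known mainly from myeloid cells, had 11.7 CPM in air, 12.8 CPM at 1 ppm and 11.4 CPM at 1.5 ppm, and its ratio to air was 1.09 (0.962 to 1.24) at 1 ppm and 0.970 (0.872 to 1.08) at 1.5 ppm. Those intervals hold 1, so no difference in Hk3 was detectable at this depth. Hk1, the housekeeping form, had 7.42, 6.85 and 7.67 CPM in order of dose. Hk2 therefore gave 60.8%, 63.7% and 67.9% of the UMIs of the 3 hexokinase genes.

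Gpi1, whose enzyme turns glucose 6-phosphate into fructose 6-phosphate, had 143.8 CPM in air, 159.5 CPM at 1 ppm and 116.2 CPM at 1.5 ppm. It was highest at 1 ppm and lowest at 1.5 ppm. The ratio to air was 1.11 (1.07 to 1.15) at 1 ppm and 0.809 (0.784 to 0.834) at 1.5 ppm, just short of the size rule, and the ratio of 1.5 ppm to 1 ppm was 0.729 (0.705 to 0.753). Phosphofructokinase commits the sugar to glycolysis, and its liver-type gene Pfkl had 11.5, 12.4 and 13.5 CPM in order of dose. The ratio at 1.5 ppm was 1.17 (1.06 to 1.30). Most phosphofructokinase UMIs came from the platelet-type gene Pfkp, at 90.6% in air, 89.5% at 1 ppm and 88.1% at 1.5 ppm, and Pfkp had 115.9, 110.1 and 103.7 CPM. Pfkl levels were thus in the order of dose and Pfkp levels in the reverse order, with neither past the size rule. Not all neighbouring levels were apart in their counting intervals. The interval of Pfkl at 1 ppm overlapped those in air and at 1.5 ppm, and the intervals of Pfkp in air and at 1 ppm overlapped. For both genes the intervals in air and at 1.5 ppm did not overlap.

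Aldolase splits the 6-carbon sugar, and Gapdh carries out the step that makes NADH. Aldoa had 366.2 CPM in air, 399.0 CPM at 1 ppm and 334.2 CPM at 1.5 ppm, so it was highest at 1 ppm and lowest at 1.5 ppm. Its ratio to air was 1.09 (1.07 to 1.11) at 1 ppm and 0.913 (0.896 to 0.930) at 1.5 ppm, and it was level with air there without the limit on mitochondrial UMIs (0.02 on the log2 scale, all cells). Gapdh had 591.9 CPM in air, 767.6 CPM at 1 ppm and 651.1 CPM at 1.5 ppm. It too was highest at 1 ppm, with a ratio to air of 1.30 (1.28 to 1.32). On the log2 scale that is 0.37, and it was 0.13 in cells of 8000 to 16000 UMIs, the lowest of 20 settings and short of the size rule. The ratio to air was 1.10 (1.08 to 1.12) at 1.5 ppm, where it was below air with the same cluster weights (-0.04 on the log2 scale). Aldoa shares its symbol with a second gene identifier, which had 8, 4 and 31 UMIs in order of dose, and Aldoa, Gapdh, Ldha and Pkm have near-identical copies in the mouse genome between which counting can split reads, so their levels are uncertain to that extent. Aldoc, the other aldolase gene with reads, had 29.4, 40.5 and 36.5 CPM.

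Enolase makes phosphoenolpyruvate and pyruvate kinase turns it into pyruvate. Eno1 had 62.4 CPM in air, 73.2 CPM at 1 ppm and 97.9 CPM at 1.5 ppm, from 2899, 2583 and 8328 UMIs. Its levels followed dose with no overlap of the intervals, and the ratio to air was 1.17 (1.11 to 1.24) at 1 ppm and 1.57 (1.50 to 1.64) at 1.5 ppm. A near-identical retrocopy, Eno1b, had 21, 35 and 90 UMIs in order of dose, at most 1.34% of the UMIs of both, and reads that matched both copies were not resolved here. Pkm had 214.5 CPM in air, 240.6 CPM at 1 ppm and 210.9 CPM at 1.5 ppm, and its ratio at 1.5 ppm, 0.983 (0.960 to 1.01), was near 1 and its side of 1 changed with the scaling (0.03 on the log2 scale with TMM factors). The counts do not separate the Pkm splice forms PKM1 and PKM2. Pgam1, the phosphoglycerate mutase gene of the step before enolase, was also higher with dose, at 108.2, 127.8 and 158.8 CPM.

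Lactate dehydrogenase regenerates NAD+ by reducing pyruvate. Ldha had 214.5 CPM in air, 260.3 CPM at 1 ppm and 236.2 CPM at 1.5 ppm, and was again highest at 1 ppm. The ratio to air was 1.21 (1.18 to 1.248) at 1 ppm and 1.10 (1.07 to 1.13) at 1.5 ppm, where it was at -0.01 on the log2 scale with the same cluster weights. Ldhb, which favours the reverse reaction, had 3, 1 and 3 UMIs in these cells. Slc16a3, the gene of the lactate exporter MCT4, had 16.6 CPM in air, 18.8 CPM at 1 ppm and 12.2 CPM at 1.5 ppm.

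The UMIs of the 10 genes together made up 1652 CPM in air, 1968 CPM at 1 ppm and 1722 CPM at 1.5 ppm, and the median over cells was 1553, 1814 and 1577 CPM. Gapdh and Aldoa gave the most UMIs in every library, so the sum followed them and not Slc2a1. In order of level, Gapdh, Aldoa, Ldha, Pkm, Gpi1, Eno1 and Hk2 kept ranks 1 to 7 in all 3 libraries, with Hk3, Pfkl and Slc2a1 below them. Counting intervals of neighbours overlapped for Ldha and Pkm in air, for Hk3 and Pfkl in air and at 1 ppm, and for Hk3 and Slc2a1 at 1.5 ppm. Each UMI marks the 3′ end of 1 transcript whatever its length, so these levels were not divided by transcript length.

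**Figure D2:**
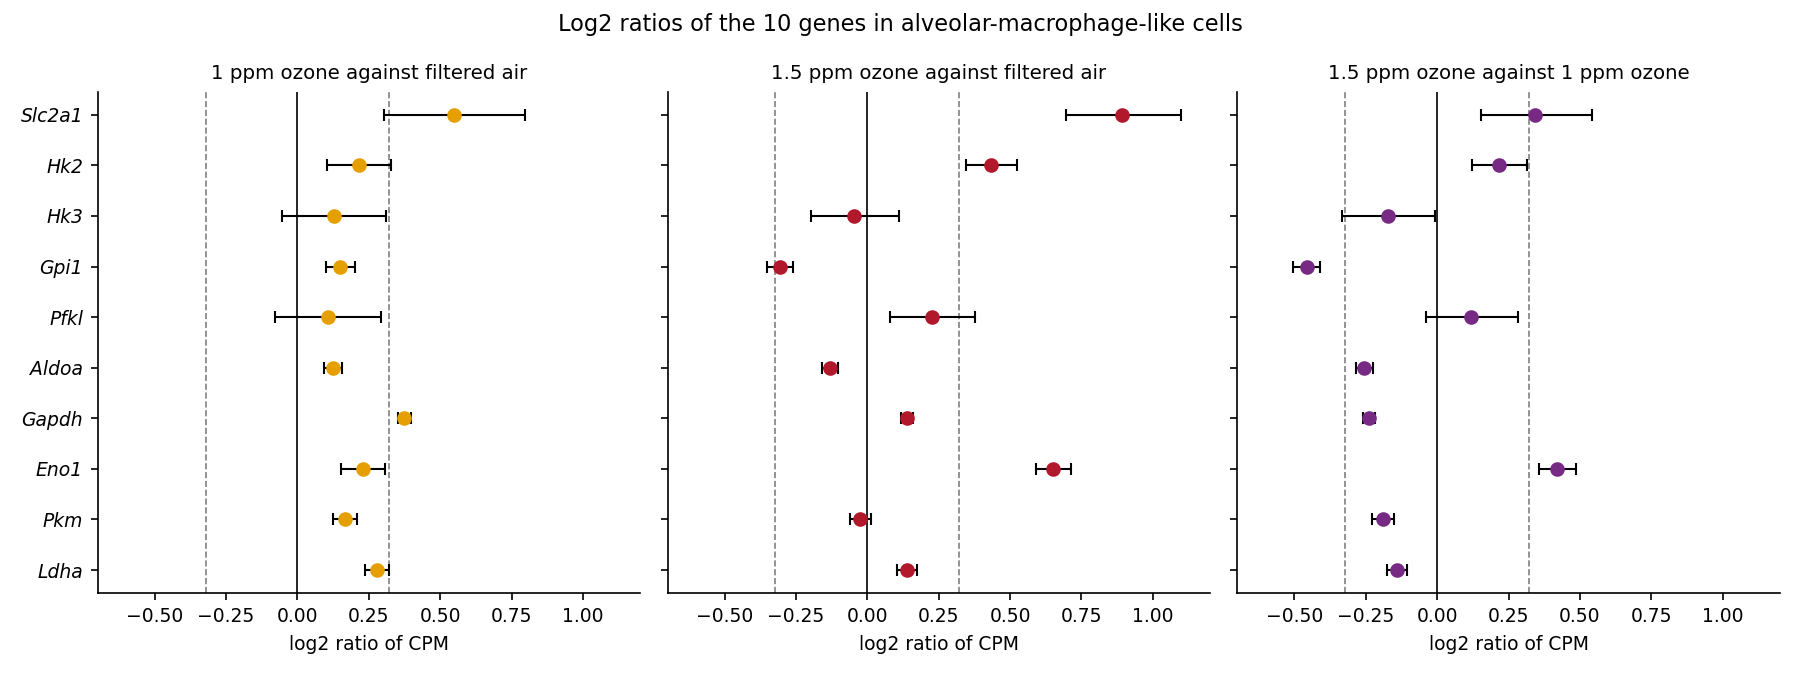
Log2 ratio of CPM for each gene, in pathway order from top to bottom, in 3 comparisons of alveolar-macrophage-like cells; points are ratios of 1 library to 1 library, bars are 95% intervals of counting error and dashed lines mark 25% higher and 80% of the level. Slc2a1 is at 0.55 at 1 ppm and 0.89 at 1.5 ppm against air, Eno1 at 0.23 and 0.65, and Gpi1 at 0.15 and -0.31.

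Genes with short transcripts were higher against air as a whole at both doses. By decile of transcript length the median log2 ratio at 1.5 ppm ran from 0.40 in the shortest, at 736 bases, to -0.18 in the longest, at 7902 bases. At 1 ppm it ran from 0.16 to -0.18 over the same deciles. The ratios at 1 ppm given above, that of Gapdh among them, are not centred on length. The most abundant of the 10 genes have short transcripts, with 1420 bases for Gapdh and 1549 for Aldoa, and Hk2, with 5513 bases, has the longest. Centred on genes of like transcript length, the log2 ratio at 1.5 ppm was 0.98 for Slc2a1, 0.60 for Hk2, 0.68 for Eno1, -0.06 for Gapdh and -0.21 for Gpi1. Slc2a1, Hk2 and Eno1 were thus at least as far above air as without centring, and Gapdh moved to the other side of 0. In cells of 2.5 to 4% mitochondrial UMIs, where the libraries are matched in that share, the values were 0.84 for Slc2a1, 0.47 for Hk2, 0.56 for Eno1, -0.07 for Gapdh and -0.35 for Gpi1.

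The clusters within the class differed in these genes, and since libraries took different shares of each cluster, clusters were ranked within a library. Slc2a1 was highest in cluster 1 at 1.5 ppm (17.4 CPM) and at 1 ppm (12.3 CPM). In air it was highest in cluster 14 (led by Slc7a11, Hmox1 and Hspa1a, genes of oxidative and heat stress responses), at 16.1 CPM (10.9 to 23.0), with cluster 1 at 11.1 CPM (7.10 to 16.5) and overlapping intervals. Cluster 14 was highest in Aldoa and Pkm in both libraries where it held enough cells for a value, with 497.1 and 378.2 CPM at 1.5 ppm and 708.7 and 529.7 CPM in air. Gapdh was highest in cluster 8 (led by Rgcc, Slc39a2 and Cd36) in all 3 libraries, at 886.9 CPM in air, 1021 CPM at 1 ppm and 833.5 CPM at 1.5 ppm. Ldha was highest in cluster 7 (led by replication genes such as Mcm6) in all 3, at 285.3, 373.7 and 308.5 CPM in order of dose. Pooled over libraries, clusters 6 (led by Gm27008, Lrrc4 and Insyn2b) and 20 (led by Sdk1, Neil3 and Lockd), with 7.14% and 7.37% mitochondrial UMIs, had little of the abundant enzymes, with Gapdh at 108.9 and 120.8 CPM and Aldoa at 80.2 and 60.4 CPM, while Slc2a1 was at 9.84 and 7.40 CPM.

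Cluster 1 held more cells and cluster 0, with 5.21 CPM of Slc2a1, fewer at the higher dose, so the comparisons were repeated cluster by cluster. Slc2a1 was above air in 10 of 10 clusters at 1 ppm and in 9 of 11 at 1.5 ppm, the exceptions at 1.5 ppm being clusters 3 and 14 (log2 ratios -0.14 and -0.85). Such tallies of clusters take the sign alone, without counting intervals. They take only clusters with at least 30 cells in both libraries, so they leave out cluster 20 and cluster 4, which held 895 cells at 1.5 ppm. Tallies that use the 1 ppm library also leave out cluster 14. Some signs of Slc2a1 rest on few UMIs, at 1 ppm against air 7 against 3 in cluster 12, 5 against 10 in cluster 6 and 9 against 11 in cluster 9. In cluster 1 itself Slc2a1 had 11.1 CPM in air, 12.3 CPM at 1 ppm and 17.4 CPM at 1.5 ppm. Gpi1 was below air in 11 of 11 clusters at 1.5 ppm, between -0.54 and -0.004 on the log2 scale. Gapdh was above air in 10 of 10 clusters at 1 ppm and below its 1 ppm level in 10 of 10 clusters at 1.5 ppm. Eno1 was above air in 9 of 11 clusters at 1.5 ppm and Hk2 in 8 of 11. When all libraries were given the same weights of 12 clusters, the log2 ratio at 1.5 ppm against air was 0.54 for Slc2a1, 0.39 for Hk2 and 0.26 for Eno1, against 0.89, 0.43 and 0.65 with cells as they came. Slc2a1 then stood at -0.01 for 1.5 ppm against 1 ppm, against 0.34 with cells as they came, and within single clusters it was above its 1 ppm level at 1.5 ppm in 6 of 10. The median over those 10 clusters was 0.24, with a range of -0.66 to 1.34, the highest from 34 against 5 UMIs in cluster 6. The weighted value and the median over clusters thus differ. They do not rest on the same clusters, since the 12 weighted clusters include clusters 4 and 14, which those 10 leave out. Cluster 4 held only 12 cells in air and 16 at 1 ppm, and cluster 14 held 15 at 1 ppm, so weighted values rest partly on few cells. The size of the difference between ozone doses depends on which clusters are taken and how they are weighted.

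**Figure D3:**
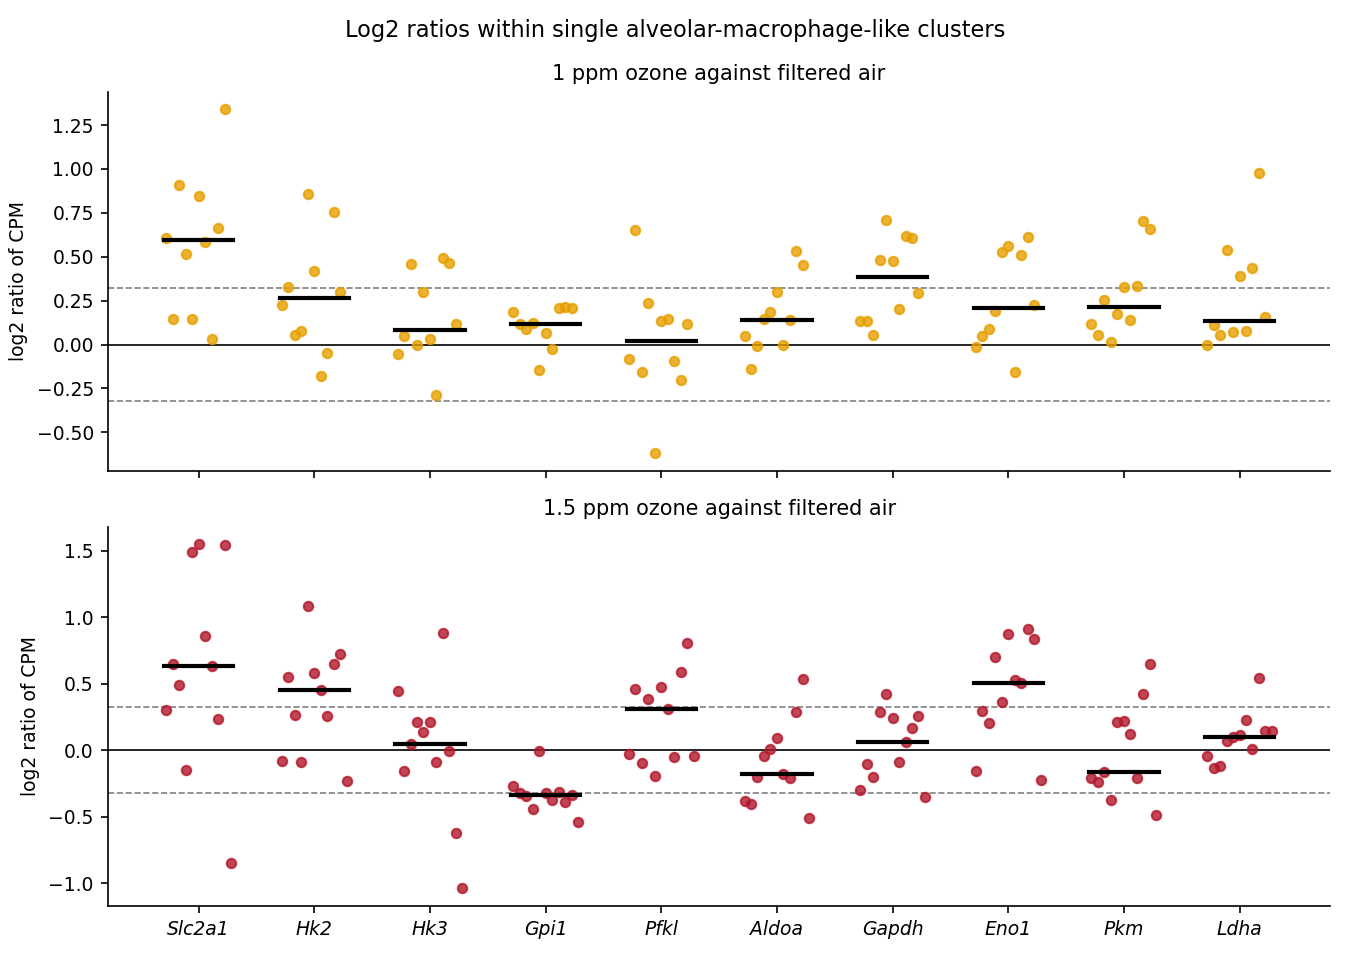
Log2 ratios of CPM to filtered air within single alveolar-macrophage-like clusters, at 1 ppm ozone above and 1.5 ppm ozone below, for each of the 10 genes along the horizontal axis; each point is 1 cluster, thick lines are medians over clusters and dashed lines mark 25% higher and 80% of the level. All 11 Gpi1 points at 1.5 ppm lie below 0, and Slc2a1 has 10 of 10 points above 0 at 1 ppm and 9 of 11 at 1.5 ppm. Counting intervals are not drawn, and some Slc2a1 points rest on few UMIs.

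Cells with 3 or more UMIs of G2 and M phase genes numbered 908 of 3072 in air, 589 of 1991 at 1 ppm and 2158 of 5276 at 1.5 ppm. The cut was not scaled to depth, so these are not counts of dividing cells. Clusters 10 and 12, with mitosis genes such as Top2a and Ube2c among their leading genes, held 78 and 59 air cells. The cells with 3 or more such UMIs were deeper than the other cells, with medians of 17685.5, 20745 and 19544.5 UMIs against 12774.5, 14679 and 11222. The part of depth in the differences between them was not tested. Pkm was higher in them than in the other cells in all 3 libraries, at ratios of 1.16 (1.11 to 1.21), 1.17 (1.12 to 1.22) and 1.17 (1.14 to 1.21) in order of dose, and Eno1 at 1.08, 1.16 and 1.18. Gpi1 had ratios of 1.02 (0.967 to 1.07), 1.04 (0.983 to 1.09) and 0.963 (0.925 to 1.00), with no difference detectable at this depth. In cells with fewer than 3 such UMIs, Slc2a1 had 9.82 CPM at 1.5 ppm against 4.98 CPM in air, Hk2 41.1 against 28.5 CPM, Eno1 88.9 against 60.5 CPM and Gpi1 118.7 against 142.9 CPM. The differences of these 4 genes were therefore also present in cells with few such UMIs.

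In the 1.5 ppm library the other cell classes could be set against alveolar-macrophage-like cells, as a comparison of cells within 1 library. Neutrophil-like cells, defined by S100a8, S100a9 and Cxcr2, numbered 79 with a median of 2289 UMIs, against 1 in the air library and 11 at 1 ppm. Slc2a1 had 160.2 CPM in neutrophil-like cells, from 38 UMIs, against 10.4 CPM in alveolar-macrophage-like cells, a ratio of 15.4 (10.8 to 21.3). Hk3 had 59.0 CPM in the neutrophil-like cells and 11.4 CPM in the macrophages, 5.18 times the level (2.82 to 8.73). For Hk2 the levels were 97.0 CPM and 40.2 CPM, with 2.41 times the level in the neutrophil-like cells (1.53 to 3.62). Entry and trapping of glucose thus had higher transcript levels in neutrophil-like cells, while several later steps had lower ones.

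Eno1 was also higher in neutrophil-like cells, at 177.1 CPM against 97.9 CPM, and Pkm at 282.5 CPM against 210.9 CPM, with ratios of 1.81 (1.30 to 2.45) and 1.34 (1.04 to 1.70). Gapdh was lower, with 274.0 CPM in neutrophil-like and 651.1 CPM in alveolar-macrophage-like cells, or 0.421 of the level (0.325 to 0.537). Ldha had 88.5 CPM in neutrophil-like and 236.2 CPM in alveolar-macrophage-like cells, or 0.375 of the level (0.232 to 0.573). Aldoa had a ratio of 0.505 (0.360 to 0.687) and Gpi1 one of 0.653 (0.387 to 1.03), whose interval holds 1. Pfkl had 0 UMIs in neutrophil-like cells, which allows up to 15.6 CPM, against 13.5 CPM in alveolar-macrophage-like cells, and all 13 phosphofructokinase UMIs were of Pfkp. Of transporter UMIs, 73.1% were of Slc2a1 and 17.3% of Slc2a3. Macrophage transcripts were present in the neutrophil-like cells, with Chil3 at 2458 CPM against 6229 CPM and Mrc1 at 485 CPM against 1039 CPM, and their part in the levels of the enzymes was not tested. S100a9 itself stood at 11645 CPM in the neutrophil-like class.

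Cluster 13 was left unnamed. Its leading genes were Ccl4 and Ccl3, which code for chemokines, and Thbs1. It held 248 cells at 1.5 ppm, with a median of 2075.5 UMIs, against 1 cell at 1 ppm and 0 in air. Hk3 had 252.9 CPM there, from 173 UMIs, against 11.4 CPM in alveolar-macrophage-like cells, a ratio of 22.2 (18.8 to 26.1), and gave 81.2% of hexokinase UMIs. Slc2a1 had 80.4 CPM, a ratio of 7.73 (5.77 to 10.2), and Pfkl 30.7 CPM, a ratio of 2.28 (1.41 to 3.51). Hk2 did not differ beyond counting error, at 0.909 (0.587 to 1.34). Gapdh, Ldha and Gpi1 were lower, at ratios of 0.550, 0.563 and 0.616. S100a9 was at 1192 CPM in cluster 13 and Chil3 at 2823 CPM, so transcripts of both neutrophils and macrophages were present.

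Cluster 15, led by C1qa and Apoe and also unnamed, held 96 cells at 1.5 ppm. Slc2a1 had 40.4 CPM there, a ratio of 3.89 (2.72 to 5.40), Eno1 180.4 CPM, a ratio of 1.84 (1.57 to 2.15), and Hk2 62.3 CPM, a ratio of 1.55 (1.17 to 2.01), while Gapdh and Aldoa were lower, at 0.650 and 0.664. In migratory-dendritic-cell-like cells, of which there were 53, Hk2, Pkm and Ldha were lower, at ratios of 0.188 (0.051 to 0.482), 0.395 (0.287 to 0.530) and 0.449 (0.339 to 0.583). There Eno1 gave 46.8% of enolase UMIs, beside Eno2 at 36.0 CPM and Eno3 at 26.5 CPM, where alveolar-macrophage-like cells of the same library had 0.012 CPM of Eno2 and 2.01 CPM of Eno3. T-cell-like cells, 72 in number, had 8 UMIs of Slc2a1, a ratio of 2.07 (0.890 to 4.09), and Aldoa at a ratio of 0.386 (0.285 to 0.512). The 53 airway-epithelial-like cells had 1 UMI of Slc2a1.

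At 1.5 ppm a UMI of Slc2a1 was seen in 30.4% of neutrophil-like cells and 17.7% of cells of cluster 13, against 13.7% of alveolar-macrophage-like cells, whose median depth was 13324 UMIs. Thinning to 2000 UMIs left out cells below that depth, and median depths were 2289 UMIs in neutrophil-like cells and 2075.5 in cluster 13. The thinned shares are thus of the deeper cells only, not of the same cells as above. They were 31.5% in neutrophil-like cells, 13.04% in cluster 13 and 0 of 43 migratory-dendritic-cell-like cells, an interval reaching 8.22%, against 1.79% in alveolar-macrophage-like cells. Summed over the 10 genes, neutrophil-like cells had 1383 CPM, cluster 13 had 1801 CPM and migratory-dendritic-cell-like cells had 920 CPM, against 1722 CPM in alveolar-macrophage-like cells. With 79 neutrophil-like cells at 1.5 ppm, the class was too small for a comparison between exposures.

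**Figure D4:**
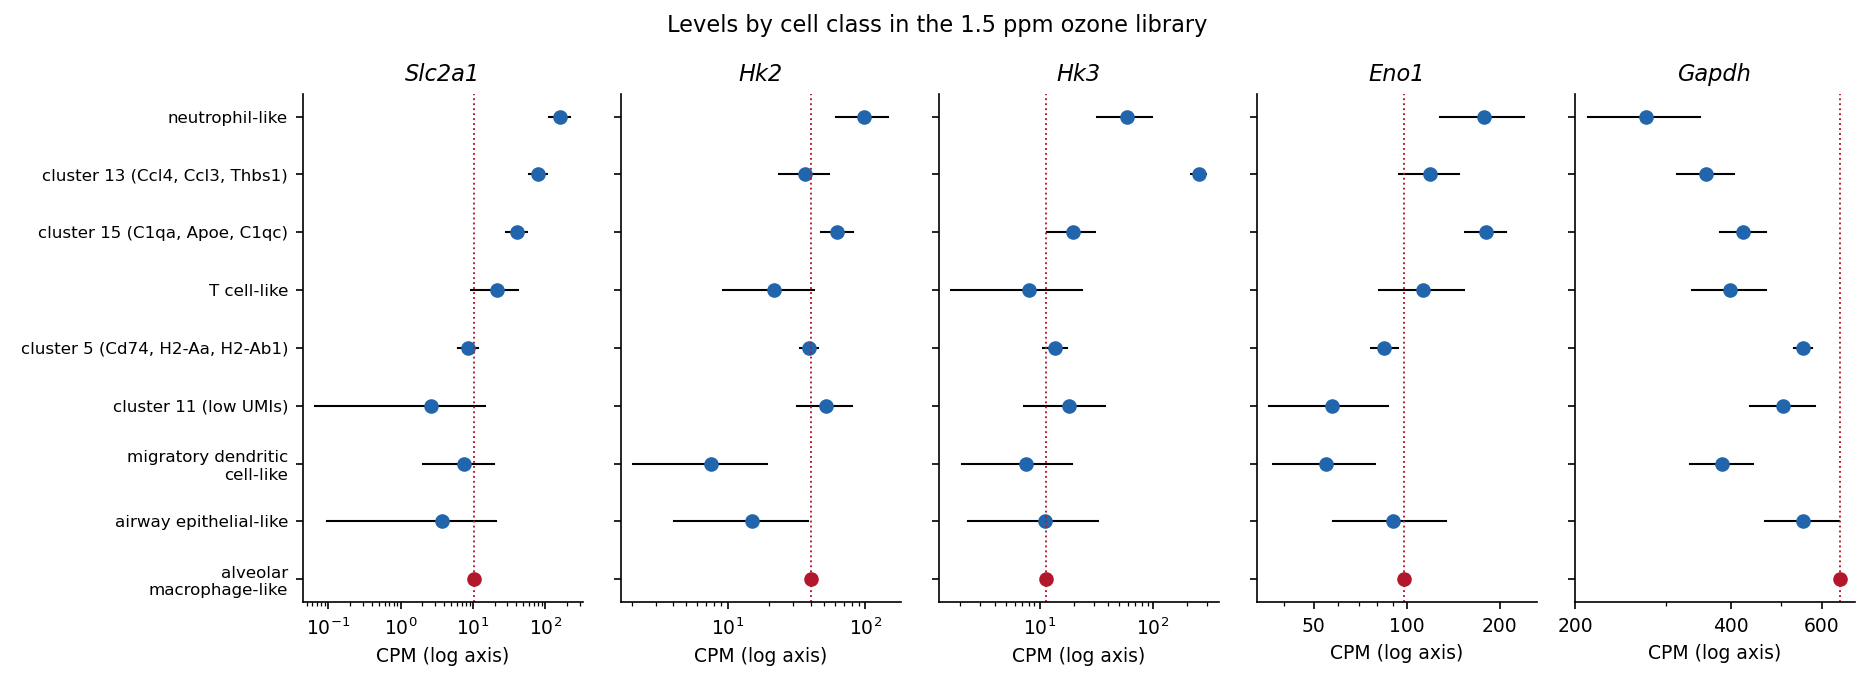
Levels in CPM, on log axes, of 5 of the 10 genes in cell classes of the 1.5 ppm ozone library, with alveolar-macrophage-like cells in red at the bottom and as a dotted line; bars are 95% Poisson intervals of counting error. Slc2a1 reaches 160.2 CPM in the neutrophil-like class and 80.4 CPM in cluster 13, against 10.4 CPM in macrophages, and Hk3 reaches 252.9 CPM in cluster 13, against 11.4 CPM in macrophages, while Gapdh has its highest level in alveolar-macrophage-like cells.

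Of 14 other glycolysis genes with enough UMIs among 23 listed, 1 was called higher at 1.5 ppm against air (Pgam1, log2 ratio 0.55) and 3 lower (Slc2a8 -0.62, Slc2a9 -0.49 and Slc16a3 -0.44), where 21.6% of all genes were called higher and 18.1% lower, with a median of -0.02 against -0.05 over all genes. At 1 ppm 1 was higher (Aldoc, 0.46) and 1 lower (Eno3, -0.53), where 8.34% of all genes were higher and 11.6% lower. Slc2a8 codes for an intracellular hexose transporter. Of 5 measured genes for enzymes that set fructose 2,6-bisphosphate, the activator of phosphofructokinase, 1 was called lower at 1.5 ppm (Pfkfb2, -0.34) and 0 higher, and Pfkfb3, the form known as inducible in inflammation, was at -0.30, with Pfkfb1 at 0.17 and Tigar at 0.14.

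Genes of the entry of pyruvate into the mitochondrion held values on both sides of air. Mpc1 and Mpc2, which code for both subunits of the mitochondrial pyruvate carrier, had 222.6 and 208.9 CPM in air, 241.2 and 206.1 CPM at 1 ppm, and 357.7 and 338.1 CPM at 1.5 ppm. They stood at 0.68 and 0.69 on the log2 scale at 1.5 ppm against air, and at 0.12 and -0.02 at 1 ppm. Pdk4, a kinase that shuts pyruvate dehydrogenase and is known as a target of fatty acid signalling, had 10.5 CPM in air, 11.05 CPM at 1 ppm and 4.74 CPM at 1.5 ppm, a log2 ratio of -1.14 (-1.34 to -0.95). Pdk1 was at -0.42. Of 12 genes of this list, 2 were called higher and 3 lower at 1.5 ppm, and 0 in either direction at 1 ppm. Over all genes 21.6% were higher and 18.1% lower at 1.5 ppm, so the list's counts are near that background, as is its median, -0.06 against -0.05.

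In the citric acid cycle 2 of 16 genes were called higher at 1.5 ppm (Sdhb 0.57 and Fh1 0.41) and 1 lower (Suclg2 -0.34), with Idh3a at 0.32 and a median of 0.10, where 21.6% of all genes were higher and 18.1% lower, with a median of -0.05. Of 7 pentose phosphate genes 0 were called at either dose, with Pgls at 0.22, G6pdx, the first enzyme of the path, at -0.22, and Pgd and Taldo1 at -0.13 each at 1.5 ppm. Of 8 glycogen genes 3 were called lower at 1.5 ppm, the synthase gene Gys1 (-0.41), the branching enzyme gene Gbe1 (-0.34) and the phosphorylase gene Pygl (-0.34), and 0 higher, with Pgm1 at -0.11 and a median of -0.07. Of 3 measured gluconeogenesis genes 1 was lower (G6pc3, -0.56), with Pcx at 0.08 and Pck2 at -0.04. These lists are short, and their counts are read against the same shares of all genes.

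The transcription factors that act on these genes were measured by their own transcripts, which do not report their activity. Of 11 measured regulators 0 were called higher at 1.5 ppm and 4 lower (Esrra -0.54, Myc -0.40, Mlxip -0.36 and Max -0.35), where 21.6% of all genes were higher and 18.1% lower, and the median was -0.26 against -0.05 over all genes. Myc was lower at 1 ppm too, at -0.54. HIF-1 targets outside glycolysis were split: of 9 measured among 15 listed, Higd1a (0.61) and Ndrg1 (0.60, with 2.01 CPM at 1.5 ppm against 1.31 CPM in filtered air) were called higher, Kdm3a (-0.43) was called lower and Mxi1 was at -0.29. At 1 ppm against air 1 of the 9 was called higher and 1 lower, where 8.34% of all genes were higher and 11.6% lower. The lower 1 was Ndrg1 (-0.70, with 0.793 CPM), so it stood on opposite sides of air at the 2 doses, at low levels. The list's median was 0.01 at 1.5 ppm and -0.10 at 1 ppm.

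**Figure D5:**
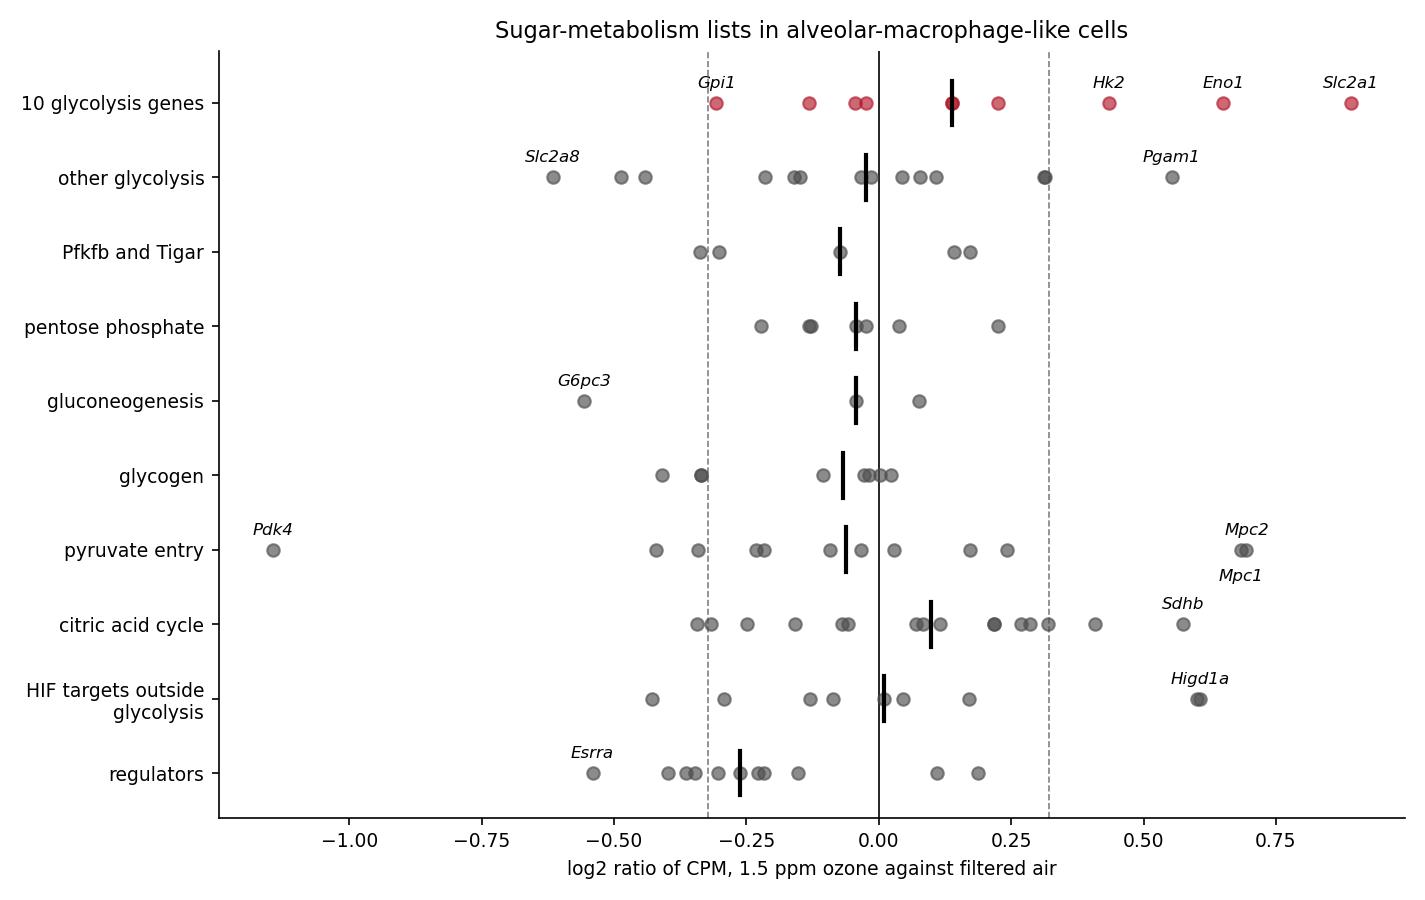
Log2 ratio of CPM at 1.5 ppm ozone against filtered air in alveolar-macrophage-like cells for the 10 genes and for 9 lists of sugar metabolism and its control; each point is 1 gene with at least 100 UMIs, thick lines are list medians and dashed lines mark 25% higher and 80% of the level. Mpc1 and Mpc2 are at 0.68 and 0.69, Pdk4 is at -1.14, and the regulators have a median of -0.26.

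The likeness of patterns was measured as Pearson's r of log2(CPM + 1) over 22 clusters pooled over libraries, among 7360 genes of at least 50 CPM in a cluster. It is a description, since clusters share libraries and differ in depth. The 5 genes most like Slc2a1 were Gm31718 (0.92), Itgam (0.92), Adgrg3 (0.90), Csf1 (0.89) and Egr1 (0.89), of which Itgam and Adgrg3 are known from granulocytes. The 5 most like Ldha were Abhd17a (0.97), Slc25a5 (0.96), Atp5g1 (0.95), Cuta (0.94) and Wdr83os (0.94), of which Slc25a5 and Atp5g1 code for mitochondrial proteins of ATP supply. Among the 10 genes themselves, Ldha was most like Gapdh (0.88), Gpi1 (0.81) and Aldoa (0.79), while Slc2a1 was at -0.29 with Ldha and at 0.54 with Eno1 and 0.53 with Hk3.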

How the data were processed

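Single cells of bronchoalveolar lavage were measured with a droplet 3′ kit, 1 library per exposure. The deposited matrices give integer counts, the UMIs of each gene in each barcode, made with Cell Ranger 8.0.0 on GRCm39, per the submitters' processing notes. The authors' values were used without further correction for free RNA. Barcodes with at least 500 UMIs, at least 300 genes and at most 10% mitochondrial UMIs were kept, 12297 in all. Scrublet marked 18 of them (0.146%), fewer than a working caller would. Those 18 were removed, and other doublets may remain. Cells were clustered with scanpy 1.11.5 (2000 variable genes without the 10 genes and their pathway lists, 30 components, 15 neighbours, Leiden resolution 1, seed 1), and 12279 cells in 22 clusters entered. Classes were named from marker lists by a scoring rule set after the data were seen.

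Levels are UMIs per 1000000 (CPM), from UMIs summed over cells, with exact Poisson intervals. Ratios of sums have exact conditional intervals, and log2 ratios add 1 UMI to each sum. Shares of cells have Clopper-Pearson intervals. With 1 library per exposure, no test between exposures was made, and genes are called by size, at 25% or more higher or 80% or less of the level, among those with at least 100 UMIs. The ratio code was tested on simulated data. The 10 genes are all named, and of each other list up to 4 measured genes with the largest log2 ratio at 1.5 ppm against air, and isoenzymes. The genes most like Slc2a1 and Ldha were named by rank. Members and lists were chosen with earlier results of these data known. Upstream sequences are from RefSeq tables, matched by symbol for 10 of 10 genes. Transcript lengths are from a GENCODE annotation of the same build as those sequences, matched by gene identifier. edgeR 4.0.16 in R 4.3.3 gave TMM factors as an alternative. The alternatives tried were other cell filters, depth and mitochondrial ranges, scalings, cluster sets and weights, a larger added count and centring on length. A further alternative left out the minimum of 100 UMIs, which changes no ratio of the 10 genes.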

Additional observations from a re-analysis of the deposited data

Results flagged for a closer look

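Gpi1 stood on opposite sides of air at the 2 doses in alveolar-macrophage-like cells, with log2 ratios of -0.31 at 1.5 ppm and 0.15 at 1 ppm. Aldoa did the same, with -0.13 at 1.5 ppm and 0.12 at 1 ppm, though its value at 1.5 ppm was 0.02 without the limit on mitochondrial UMIs. Each dose is 1 library and both ratios share the air library, so the difference between doses was not tested. A second gene identifier with the symbol Aldoa, outside the main measurement, had 31 UMIs in these cells at 1.5 ppm.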

How the results depend on the processing

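No paired analysis was possible because each exposure is 1 library and the labels give no replicate numbers that pair them. Of 720 values over 20 alternative settings (14 planned and 6 chosen after seeing the data), 576 stayed within the counting error of the main value or near the main count, and 143 moved further. A value past the size rule changed sign in 1 case, Slc2a1 at 1.5 ppm against 1 ppm, at -0.00797 with the same cluster weights in every library. Slc2a1 and Hk2 stayed at least 25% above air at 1.5 ppm in 20 of 20 settings, Eno1 in 19 of 20 (0.26 with the same cluster weights), and Gpi1 stayed at 80% or less of its 1 ppm level at 1.5 ppm in 20 of 20. Gapdh kept its call as higher at 1 ppm in 14 of 20. The 20 settings include 1 without the minimum of 100 UMIs, which all the genes described here pass. Its ratios for these genes equal the main ones by construction. Its agreement is therefore no test, in any count of settings or of values given here. Of values within the size rule at 1.5 ppm against air, Hk3 and Pkm kept their sign in 13 of 20 settings each, Gapdh in 17, Ldha in 18, and Aldoa and Pfkl in 19 each.

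The median of the 10 genes at 1.5 ppm against air was 0.27 with no limit on mitochondrial UMIs, 0.0501 without cells of 3 or more G2 and M phase UMIs, 0.0430 in cells of 2.5 to 4% mitochondrial UMIs, -0.00874 in cells of 8000 to 16000 UMIs, 0.0618 as the mean of each cell's CPM, 0.18 with median-of-ratios size factors, 0.19 with TMM, 0.00277 with the same cluster weights and 0.0884 centred on transcript length. At 1 ppm against air the median was 0.10 in cells of 8000 to 16000 UMIs, and 1 gene was called without cells of 3 or more G2 and M phase UMIs, with the mean of each cell's CPM and with the same cluster weights. At 1.5 ppm against 1 ppm the median was -0.00206 with no mitochondrial limit and -0.0470 over all cells that passed the filter, and 5 genes were called in cells of 2.5 to 4% mitochondrial UMIs, 6 in cells of 8000 to 16000 UMIs and 1 with the same cluster weights. The cause was not tested for any of these. The shares of all genes called in these settings were not computed, so these counts of called genes have no background beside them. Other scalings shifted the median of all genes by at most 0.068. Depth limits Slc2a1, Hk3 and Pfkl most, with 260, 546 and 534 UMIs in air.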
